A study of Zea mays with 10 samples.

Results

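The genes described here were rbcs1 (LOC542212), which encodes the small subunit of Rubisco, and mdh6 (LOC542374), which encodes a malate dehydrogenase of the chloroplast. They were taken from the platform annotation, by keeping each array element that is annotated to exactly 1 gene and carries either symbol. This gave 3 of the 19200 elements in the value table. element_9535 and element_16448 stand for rbcs1 and element_6174 stands for mdh6. All 3 had a value on each of the 10 arrays and passed the filter on missing values. The rule used gene symbols and no measured value, but these genes were picked with earlier results of these data known, so the shares of all elements and genes given beside them are a description.

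Maize fixes carbon by the C4 route, which is shared between the mesophyll and the bundle sheath of the leaf. In the mesophyll, phosphoenolpyruvate carboxylase captures inorganic carbon as oxaloacetate, and the NADP-dependent malate dehydrogenase of the chloroplast, encoded by mdh6, reduces it to malate. Malate moves to the bundle sheath, where NADP-malic enzyme releases the carbon dioxide and Rubisco, with its small subunit from the rbcS genes, fixes it in the Calvin cycle.

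The series set field-grown maize from plots sown with velvetleaf, a broadleaf weed, against maize from plots weeded by hand. There were 4 weedy and 4 control plots, and leaf from 4 plants of a plot was pooled, so that each plot gave 1 RNA pool. Neither treatment received extra water or fertilizer. The labels name neither the maize line, nor the age of the plants, nor the leaf position. Each of the 10 arrays of 2 colours paired a weedy pool with a control pool, of which 5 carried the weedy pool and 5 the control pool in the Cy5 channel. Arrays are named here by their plots, so that W1/C4 is the array with weedy plot 1 and control plot 4.

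A plot was used on 2 to 4 arrays, and control plot 4 was on 4 of them, so the arrays are not independent samples. The plots, not the arrays, are the replicates of a treatment. The table holds ratios of the channels and no signal levels, so the presence of leaf, mesophyll or bundle sheath RNA could not be checked against marker levels. In pooled leaf, fewer cells of a type and less RNA per cell cannot be told apart. Between 9965 and 17383 elements had a value per array, the fewest on W3/C4, and the deposited ratios had an SD per array between 0.31 and 0.594, the largest also on W3/C4. The number of arrays limits the precision.

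The numerator of the deposited ratios is not stated, and the members' signs turn on it. On one reading the values are Cy5 over Cy3, and weedy over control is then the value itself with the weedy pool in Cy5 and its negative with the control pool in Cy5. On the other reading, called pre-turned here, the submitters' values already stand for weedy over control on all arrays. If the values are Cy3 over Cy5, the signs of the first reading are all reversed. Values were centred on each array's median and are called log2, though a natural log cannot be told from log2. Arrays of the same dye orientation correlated over elements at a median of 0.108 (20 pairs), and arrays of opposite orientation at -0.05 (25 pairs, -0.298 to 0.233). All values below are differences between pools, not levels.

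The small subunit gene rbcs1, as the mean of its elements, lay below the array median on 3 of 5 arrays with the weedy pool in Cy5 and on 5 of 5 with the control pool in Cy5. With the weedy pool in Cy5, the centred log2 ratio of element_9535 was 0.34 on W2/C1, 0.31 on W3/C2, 0.13 on W4/C3, -0.78 on W1/C4 and -1.06 on W4/C4. With the control pool in Cy5, it was 0.08 on W3/C1, -0.28 on W1/C2, -0.86 on W3/C4, -0.86 on W2/C4 and -0.955 on W1/C3. The orientations overlapped, and the lowest 5 values came from the 4 arrays with control plot 4 and from W1/C3.

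The other rbcs1 element had its lowest 5 values on the same 5 arrays. For element_16448, the log2 ratios with the weedy pool in Cy5 were 0.18 on W3/C2, 0.12 on W2/C1, -0.37 on W4/C3, -0.39 on W1/C4 and -0.71 on W4/C4. With the control pool in Cy5 they were 0.10 on W1/C2, -0.27 on W3/C1, -1.02 on W1/C3, -1.02 on W2/C4 and -1.69 on W3/C4. The orientations again overlapped. The elements had the same sign on 7 of 10 arrays, differed by 0.34 on average and by at most 0.83, and correlated at r = 0.767 over the 10 arrays, which share pools and dyes. As they report on 1 gene, they are not replicates of the treatment. The RefSeq table lists another gene, LOC100279574, under the name rbcS, and whether the elements tell these family members apart was not tested.

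The malate dehydrogenase gene mdh6 was measured by element_6174 alone. With the weedy pool in Cy5 its log2 ratio was 0.29 on W3/C2, 0.14 on W4/C3, 0.01 on W1/C4, -0.27 on W2/C1 and -0.91 on W4/C4. With the control pool in Cy5 it was -0.33 on W3/C1, -0.43 on W1/C2, -0.49 on W2/C4, -1.40 on W3/C4 and -1.50 on W1/C3. All 5 arrays of this orientation lay below the median, against 2 of 5 of the other, and the orientations overlapped through W4/C4. Over the 10 arrays mdh6 correlated with the rbcs1 gene value, the mean of its elements, at r = 0.789 and with element_9535 and element_16448 at 0.706 and 0.775. The median correlation of mdh6 with the 392 other genes measured on all arrays was 0.094. Some of these genes were closer to mdh6 than rbcs1 was, with hsp70-4 at 0.868, TIP1-1 at 0.858 and tua3 at 0.855. These correlations describe arrays that share pools, dye terms and centring.

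**Figure D1:**
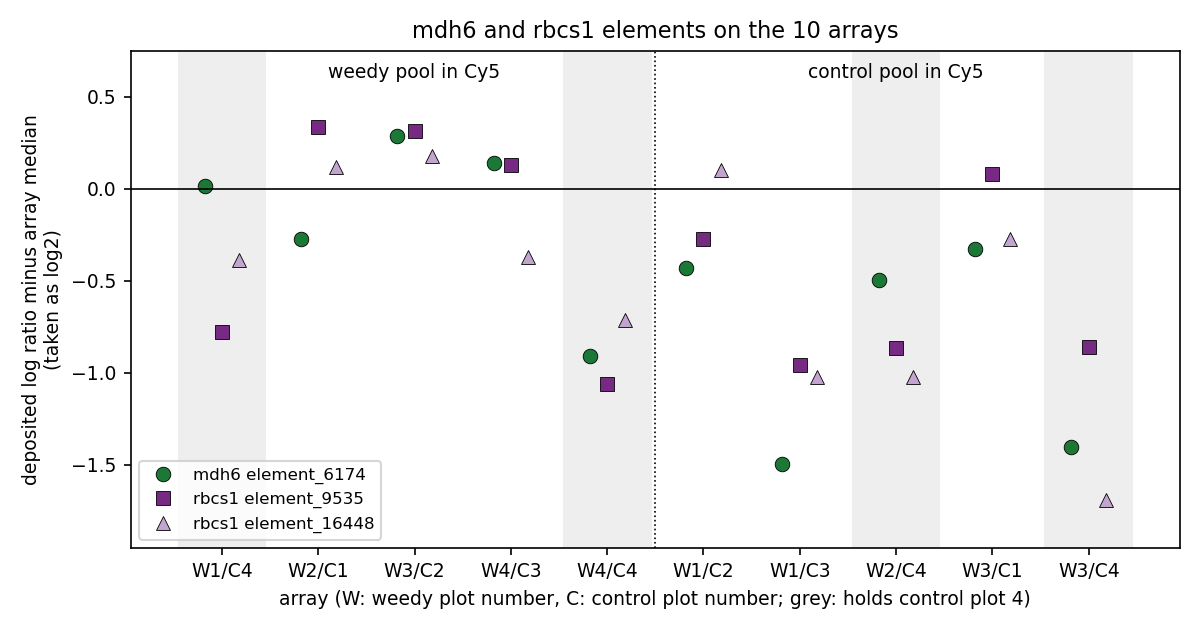
Deposited log ratio minus the array median (vertical axis, taken as log2) of the 3 elements on each array (horizontal axis, weedy and control plot numbers), with the weedy pool in Cy5 on the left and the control pool in Cy5 on the right. Grey bands mark the 4 arrays with control plot 4, where both rbcs1 elements lie below 0 in either orientation. For mdh6 all 5 arrays with the control pool in Cy5 lie below 0.

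The members varied more between arrays than most elements. Their SD over the 10 arrays was 0.57 for element_9535, 0.60 for element_16448 and 0.61 for element_6174, against a median of 0.325 over the 9486 elements with 10 values. Between 6.5% and 8.59% of those elements had a larger SD. Their means over all arrays were -0.39, -0.51 and -0.49, and 1.19%, 0.38% and 0.453% of the elements had a lower mean. All 3 elements thus stood out more by their mean across both orientations than by their spread.

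On the Cy5 over Cy3 reading, the weedy over control log2 ratio was positive for both genes and passed the test for neither. With plots as a random effect, rbcs1 was at 0.23 (SE 0.15, 95% interval -0.11 to 0.56, limma adjusted p = 0.576), positive on 7 of 10 arrays. mdh6 was at 0.34 (SE 0.15, 95% interval 0.01 to 0.67, limma adjusted p = 0.422), positive on 8 of 10 arrays. The intervals are not adjusted for the number of genes. A single variance ratio for plots, 0.0347 on this reading, was used for every gene. With arrays taken as independent the SE was 0.14 for both genes, close to the values above. The SEs, intervals and p-values may thus be too small or too narrow for a gene that varies more by plot. Of the elements, element_9535 was at 0.19 (SE 0.16) and element_16448 at 0.27 (SE 0.16).

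None of the 3 elements passed an adjusted p of 0.05, as did 2 of the 16201 elements tested, or 0.0123%. Those were element_16564 and element_15339, which carry no gene name here. Of 540 genes 0 passed in limma, or 0%, and 64 had an unadjusted p under 0.05. At that unadjusted threshold, 1 of 3 member elements was positive (element_6174), where 7.17% of all elements were. Among genes it was 1 of 2, mdh6, where 7.22% of all were. mdh6 ranked 57 of 540 genes by p and rbcs1 ranked 150.

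The dye orientations did not give the same ratio on this reading. For rbcs1, the turned log2 ratio was -0.22 ± 0.50 (SD, n = 5 arrays) with the weedy pool in Cy5 and 0.68 ± 0.55 (SD, n = 5 arrays) with the control pool in Cy5. For mdh6 it was -0.15 ± 0.47 (SD, n = 5 arrays) and 0.83 ± 0.57 (SD, n = 5 arrays). The arrays with the control pool in Cy5 were positive on 5 of 5 for each gene. With the weedy pool in Cy5, 2 of 5 were positive for rbcs1 and 3 of 5 for mdh6. In the same fit, the part of the ratio that kept its sign in both orientations was -0.45 (SE 0.14, limma adjusted p = 0.288) for rbcs1 and -0.48 (SE 0.14, limma adjusted p = 0.288) for mdh6. For both genes this part was larger than the treatment term, and 1.11% and 0.556% of genes had a larger one.

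On the pre-turned reading that constant part is the treatment, and both genes were then lower in weedy leaf without passing the test. rbcs1 was at -0.45 (SE 0.14, 95% interval -0.76 to -0.14, limma adjusted p = 0.296), negative on 8 of 10 arrays. mdh6 was at -0.49 (SE 0.14, 95% interval -0.80 to -0.18, limma adjusted p = 0.296), negative on 7 of 10 arrays. element_9535 was at -0.39 (SE 0.15) and element_16448 at -0.51 (SE 0.15), both from the fit over elements. The variance ratio for plots was estimated as 0 on this reading. All its SEs, intervals and p-values thus treat arrays that share pools as independent, and may be too narrow or too small for a gene that varies by plot.

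No element (0%) and no gene (0%) passed an adjusted p of 0.05 in limma on this reading, while 1472 elements and 54 genes had an unadjusted p under 0.05. All 3 member elements were negative with an unadjusted p under 0.05, where 5.1% of all elements were. So were both genes, where 6.48% of all genes were. By p mdh6 ranked 4 and rbcs1 ranked 12 of 540. The members shared a sign within either reading, and which reading holds could not be settled from their values.

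By plot, the centred values of rbcs1, before any turning by dye, had their lowest mean on the arrays of control plot 4. Turned on the Cy5 over Cy3 reading, the mean of that plot was 0.19, and the lowest was -0.50 for weedy plot 4. The centred rbcs1 gene value was -0.58 on W1/C4, -0.89 on W4/C4, -0.94 on W2/C4 and -1.27 on W3/C4, below 0 on 4 of 4 arrays. On the 6 arrays without that plot it was -0.99 on W1/C3 and between -0.12 and 0.24 on the other 5. The ranges overlapped through W1/C3.

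The sign of rbcs1 on the control plot 4 arrays did not follow the dye. Its mean was -1.11 with control plot 4 in Cy5 (W2/C4 and W3/C4) and -0.735 with control plot 4 in Cy3 (W1/C4 and W4/C4). The lowest of these values came from W3/C4, the array with the fewest values and the largest SD. The mean over these 4 arrays lay below that of the other 6 by 0.79 on the log2 scale, and 0.761% of the 394 genes with 10 values had a lower difference. The median difference over 9486 elements was 0.001. This grouping of arrays was noticed after the values were seen and has no test. For mdh6, 3 of the 4 arrays lay below 0, at a mean of -0.70 against -0.35 on the other 6, and 9.64% of genes had a lower difference.

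With each plot left out in turn on the pre-turned reading, rbcs1 was smallest in size without control plot 4, at -0.14 (limma adjusted p = 0.809). Without any other plot it lay between -0.58 (without control plot 2) and -0.36 (without weedy plot 4). mdh6 was at -0.35 (limma adjusted p = 0.754) without control plot 4 and between -0.59 and -0.41 without any other plot. Leaving out control plot 4 removes 4 arrays, where other plots remove 2 or 3, and the value of rbcs1 is then the mean of the 6 arrays already described. On the Cy5 over Cy3 reading the same omission left 0.25 for rbcs1 and 0.39 for mdh6. There the mean turned ratio of rbcs1 was 0.16 over the arrays of weedy plot 1, 0.59 for plot 2 and 0.54 for plot 3, against the negative mean of plot 4. For mdh6 these means were 0.65, 0.11, 0.67 and -0.39. Weedy plot 4 was the 1 weedy plot with a negative mean for either gene, and it was on 2 arrays. On W4/C3 and W4/C4, rbcs1 was at -0.12 and -0.89, and mdh6 at 0.14 and -0.91. W4/C4 also held control plot 4, and the pool of weedy plot 4 was never in Cy3. The part of weedy plot 4 thus cannot be told apart from the dye or, on W4/C4, from control plot 4.

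**Figure D2:**
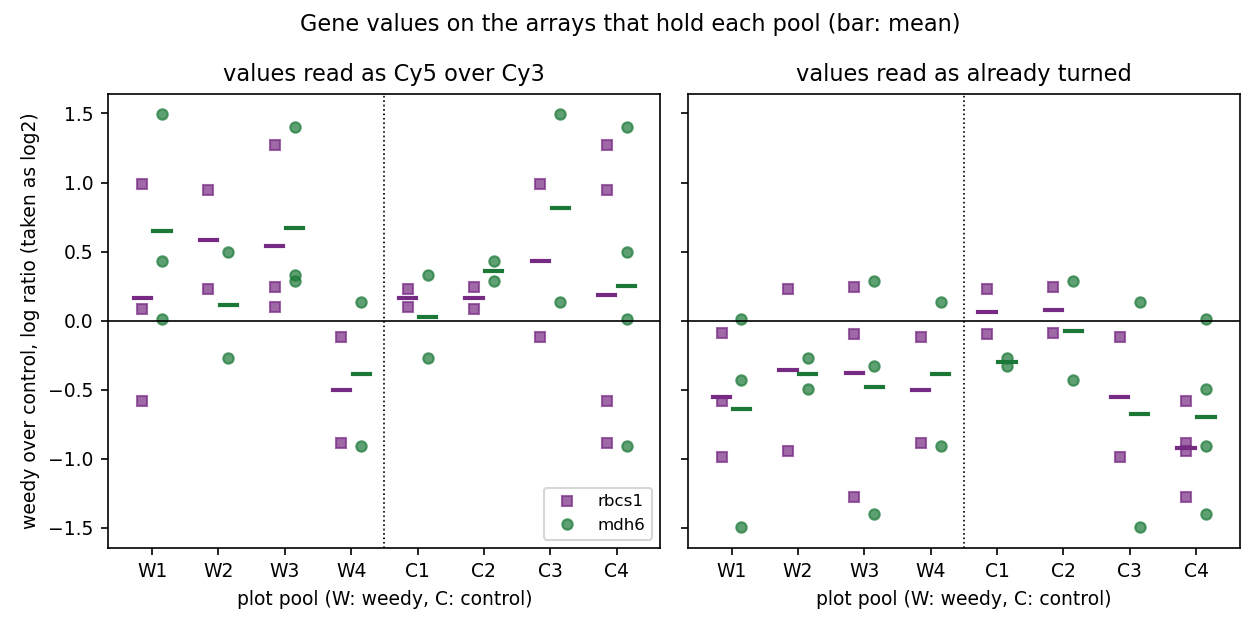
Weedy over control log ratio (vertical axis, taken as log2) of the rbcs1 and mdh6 gene values on every array that holds a given plot pool (horizontal axis), with bars at the mean. On the left, with values read as Cy5 over Cy3, weedy plot 4, which is on 2 arrays, has a negative mean for both genes. Its mdh6 values are 0.14 and -0.91. On the right, with values read as already turned, all 4 rbcs1 values of control plot 4 lie between -1.27 and -0.58.

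Left-out arrays and plots changed the size and not the sign of either gene on the Cy5 over Cy3 reading. The rbcs1 ratio ran from 0.14 without weedy plot 2 to 0.33 without W3/C1. The mdh6 ratio ran from 0.22 without control plot 3 to 0.43 without W4/C4. W1/C3 and W3/C4 held the largest mdh6 values, and its ratio was 0.26 without the former and 0.27 without the latter. With array weights rbcs1 was at 0.10 and mdh6 at 0.30.

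**Figure D3:**
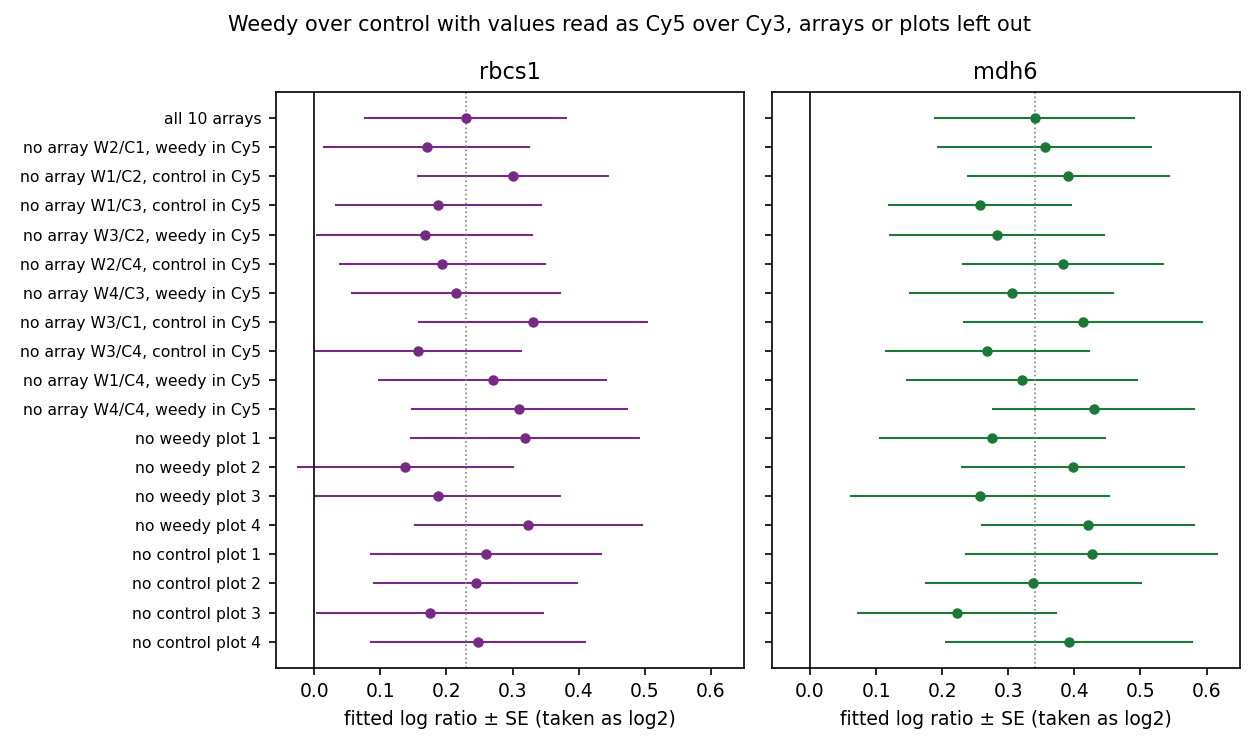
Fitted weedy over control log ratio ± SE (horizontal axis, taken as log2) of rbcs1 and mdh6 with values read as Cy5 over Cy3, for all 10 arrays and with each array or plot left out (vertical axis). All estimates lie above 0, from 0.14 to 0.33 for rbcs1 and from 0.22 to 0.43 for mdh6.

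The mdh6 element correlated over the arrays with its neighbours in the table. The median of the run of 400 table rows around element_6174 lay between -0.29 and 0.06 on the 10 arrays, and the element correlated with it at r = 0.74. For element_9535 and element_16448 the correlations were 0.378 and 0.002. With run medians removed on the Cy5 over Cy3 reading, mdh6 was at 0.29 and rbcs1 at 0.25, and on the pre-turned reading at -0.38 and -0.43. How many other elements correlate as closely with their own run is not given here. The part of table position in these ratios was otherwise not tested.

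Of the other genes on lists of C4 and Calvin cycle names, 7 were measured. The C4 list held malate dehydrogenase and malic enzyme names of any role, so mdh5, which is cytosolic, and me2 are among the 7. Neither is placed in the C4 cycle here. Phosphoenolpyruvate carboxylase, pyruvate orthophosphate dikinase, carbonic anhydrase and a photorespiration list were not matched by name and were not analysed here. A kinase of pyruvate dehydrogenase, LOC541677, shares the synonym PDK1 with the dikinase and was left out of the counts. It was at -0.03 and -0.01 on the 2 readings. Of the 7 genes 0 passed limma's adjusted p on either reading, while 1 and 3 of them had an unadjusted p under 0.05, where 11.9% and 10% of all genes did. The 1 was me2, and the 3 were me3, mdh5 and gpa1. On the Cy5 over Cy3 reading 6 were positive, with a median of 0.06 against 0.02 over all 540 genes, of which 309 were positive. On the pre-turned reading 6 were negative, with a median of -0.09 against -0.01 over all genes, of which 285 were negative.

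The malic enzymes, which release carbon dioxide from malate, differed in their pattern. me3 (LOC542233), the NADP-malic enzyme of the bundle sheath, was below the array median on 4 of 5 arrays with the weedy pool in Cy5 and on 5 of 5 with the control pool in Cy5. Its centred log2 ratio ran from -0.93 through a median of -0.27 to 0.09 with the weedy pool in Cy5, and from -0.79 through -0.55 to -0.30 with the control pool in Cy5. It was at 0.12 (SE 0.10, limma adjusted p = 0.638) on the Cy5 over Cy3 reading and at -0.44 (SE 0.09, limma adjusted p = 0.215) when read as pre-turned. On the latter it was negative on 9 of 10 arrays and ranked 1 of 540 genes by p, without passing. Its elements there differed in size, at -0.28 (SE 0.16) for element_2772 and -0.60 (SE 0.16) for element_6768.

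The gene me2 (LOC542331), for another malic enzyme, followed the dye orientation. Its log2 ratio was between 0.01 and 0.21 on the 5 arrays with the weedy pool in Cy5. It was between -0.57 and -0.13 on the 5 with the control pool in Cy5. On the Cy5 over Cy3 reading it was at 0.22 (SE 0.06, limma adjusted p = 0.272), positive on 10 of 10 arrays, as were 3 of 394 genes, or 0.761%. On the pre-turned reading it was at -0.09 (SE 0.06). The part of me2 that kept its sign in both orientations was thus smaller in size than that of rbcs1, mdh6 or me3, though the difference between these genes was not tested.

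The cytosolic malate dehydrogenase mdh5 (LOC542598), which works outside the chloroplast, had the same signs as mdh6 at a smaller size. Its mean over 7 elements was at 0.06 (SE 0.07, limma adjusted p = 0.734) on the Cy5 over Cy3 reading and at -0.20 (SE 0.06, limma adjusted p = 0.296) when read as pre-turned. Its elements were negative in 7 of 7 cases on the latter and positive in 5 of 7 on the former. Over the 10 arrays it correlated with rbcs1 at r = 0.777 and with mdh6 at r = 0.781. The kinase of phosphoenolpyruvate carboxylase, ppck1 (LOC606483), was at 0.04 (SE 0.08) and -0.04 (SE 0.07) on the 2 readings, near 0 on both.

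The other Calvin cycle genes measured were Rubisco activase and subunits of a dehydrogenase. rca1 (LOC541712), Rubisco activase, which restores the enzyme to its active state, was at -0.10 (SE 0.11) on the Cy5 over Cy3 reading and -0.03 (SE 0.10) on the other. The chloroplast glyceraldehyde-3-phosphate dehydrogenase subunit gpa1 (LOC542368) had 9 values, from -1.13 to 0.68, and was at 0.03 (SE 0.18) and -0.48 (SE 0.18, limma adjusted p = 0.38). Its partner subunit gpb1 (LOC542290) was at 0.06 (SE 0.08) and 0.07 (SE 0.08). The correlations with rbcs1 over arrays were 0.412 for rca1, -0.04 for gpa1 over 9 arrays and -0.05 for gpb1. Among the other genes counted on the C4 list the correlations with rbcs1 were 0.648 for me3, 0.673 for me2, 0.777 for mdh5 and 0.128 for ppck1. No difference between the lists was tested. On the pre-turned reading gpa1 was as far below 0 as rbcs1, with a wider error.

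**Figure D4:**
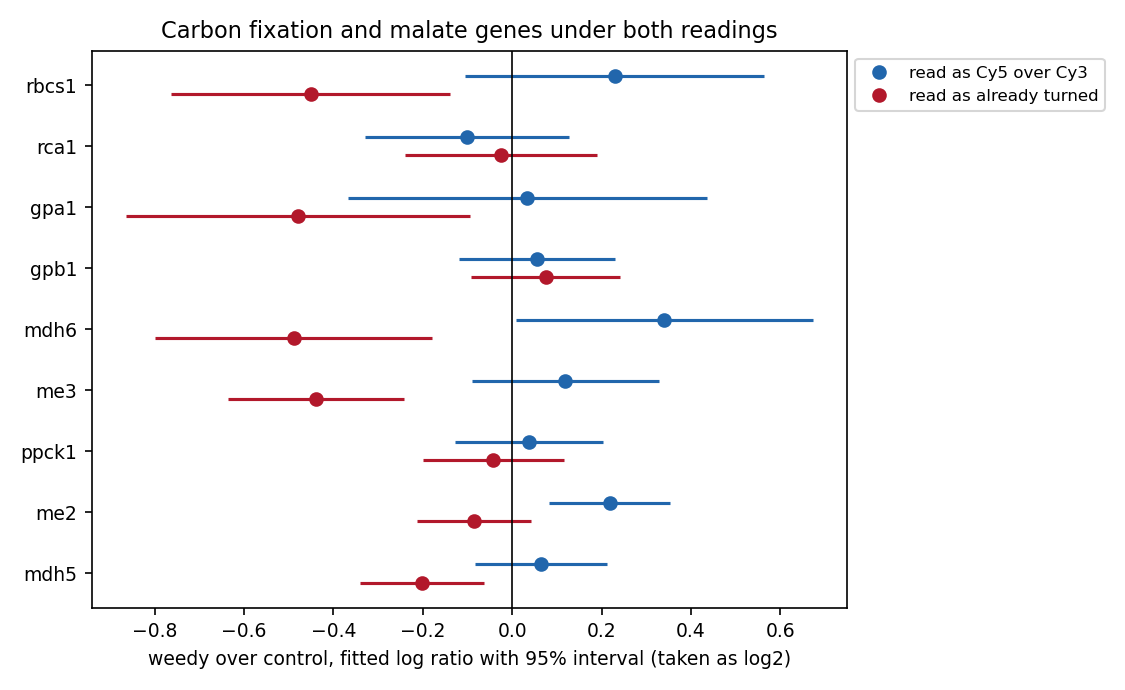
Fitted weedy over control log ratio with its unadjusted 95% interval (horizontal axis, taken as log2) of rbcs1, mdh6 and the 7 other genes, with values read as Cy5 over Cy3 in blue and as already turned in red. rbcs1, mdh6 and me3 change sign between the readings and are larger in size on the second, whereas me2 is larger on the first and gpb1 lies near 0 on both.

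The genes most like the members over the 10 arrays were found by Pearson correlation among 392 genes. For mdh6 they were the chaperone hsp70-4 (r = 0.868), the tonoplast aquaporin TIP1-1 (LOC541675, r = 0.858) and the alpha-tubulin tua3 (LOC542395, r = 0.855). For rbcs1 they were the 14-3-3 protein gene grf1 (LOC542291, r = 0.869), the plasma membrane aquaporin PIP1-3 (LOC541886, r = 0.866) and the adenine nucleotide carrier ANT2 (LOC542389, r = 0.838). They are the highest of many correlations over arrays that share pools.

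The 3 genes closest to each rbcs1 element had none in common. The closest to element_9535 were the tonoplast aquaporin TIP2-2 (LOC541895, r = 0.881), PIP1-3 (r = 0.828) and ANT2 (r = 0.822). The closest to element_16448 were the profilin PRO5 (LOC542625, r = 0.903), arf1 (LOC732812, r = 0.874) and grf1 (r = 0.858). On the Cy5 over Cy3 reading the ratios of these rbcs1 neighbours ran from 0.03 for TIP2-2 to 0.26 for grf1, the latter above the 0.23 of rbcs1. On the pre-turned reading they ran from -0.24 for grf1 to -0.02 for ANT2, all smaller in size than the -0.45 of rbcs1. These genes were picked by correlation over the same arrays, which favours ratios of the same sign as rbcs1, so the ratios are a description.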

How the data were processed

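The deposited values were 1 log ratio per element and array, taken as log2. No source used here gives the base, the numerator channel, the background correction or the normalization. RNA, 30 ug per channel, was labelled with an Alexa Fluor kit per the labels' protocols, while the channels are called Cy3 and Cy5. Each array was centred on its median. Elements present on 4 or more arrays per orientation entered a generalised least squares fit of treatment, a dye intercept and plots as a random effect (1 variance ratio, restricted likelihood, 0.0347 on the Cy5 over Cy3 reading and 0 on the other). eBayes of limma 3.58.1 (R 4.3.3) moderated variances, and p-values were adjusted over all elements or genes by Benjamini-Hochberg. Gene values are means over elements. The symbol MNB1b, on 230 elements, was left out. Of 583 genes named by the annotation, 562 matched the RefSeq table (Zm-B73-REFERENCE-NAM-5.0), from which names were taken.

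Members, lists and tests were chosen with earlier results of these data known. Named were all member elements, every measured gene of the lists and the 3 genes of highest correlation per member.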

Additional observations from a re-analysis of the deposited data

How the results depend on the processing

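rbcs1 and mdh6 did not pass an adjusted p of 0.05 under any of 33 alternatives each, with adjusted p from 0.296 to 0.962 and from 0.265 to 0.995. Each kept a positive ratio in 29 of the 30 that read the values as Cy5 over Cy3. Robust moderation, the other filters on missing values and the median over elements could not move these ratios. The fits with an array or plot left out share most of their arrays, so the count is not one of independent checks. Plot numbers as a replicate block put them at 0.22 and 0.32, changed no call of the 3 elements, and let 1 gene pass, Lsi6 (LOC542497). Of the 2 elements past the threshold it kept element_15339, lost element_16564 and gained element_10751; these were named after their values were seen. The labels do not pair plots by number, and same-numbered plots correlated from -0.612 to 0.207.

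Signs reversed when direction changed. In the order rbcs1, mdh6, element_9535, element_16448 and element_6174, the pre-turned reading gave -0.45, -0.49, -0.39, -0.51 and -0.49. With run medians also removed it gave -0.43, -0.38, -0.35, -0.52 and -0.38, and without control plot 4 -0.14, -0.35, -0.062, -0.21 and -0.35; both were added after seeing the data, as were left-out arrays and plots on this reading (rbcs1 -0.583 to -0.137, mdh6 -0.594 to -0.35, none past the threshold). Control plot 4 was in Cy5 on 2 arrays, and turning these gave -0.18, -0.007, -0.12, -0.24 and -0.007. The cause was not tested. The count of 2 elements became 1 with scaling, 6 with array weights, 0 under each of these changes of direction, and 0 to 4 with an array or plot left out (0 without weedy plot 3 or control plot 4, 4 without W1/C2). The gene count was 0 to 1 there, with 1 without weedy plot 2. The number of arrays, without signal or background values, limits precision.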
